A study of Mus musculus with 8 samples.

Results

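The genes described here encode the subunits of oxidative phosphorylation, the respiratory chain complexes I to IV and the ATP synthase (complex V) of the inner mitochondrial membrane. They were chosen by name: protein-coding genes with mouse symbols of the Nduf (a, b, c, s, v), Sdh, Uqcr, Cox4 to Cox8 and Atp5 families, without pseudogenes and assembly factors, and the protein-coding genes of the mitochondrial chromosome. This gave 98 of the 41388 genes in the tables, 85 encoded in the nucleus and 13 in mitochondrial DNA. Complexes I, III and IV pass electrons to oxygen and pump protons, complex II (succinate dehydrogenase) feeds in electrons from the citrate cycle, and the ATP synthase uses the proton gradient to make ATP. Every complex but complex II holds subunits of both genomes. Subunits of the catalytic or proton-carrying core of a complex are here called core subunits, and all others, mostly small, supernumerary subunits. All 4 genes of complex II were classed as core, as were 9 of 17 nuclear genes of complex V.

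Bulk ear skin of adult wild-type (WT) C57Bl/6 mice was sequenced in 8 libraries. There were 4 libraries from mice given 1 nmol MC903 on the skin daily for 12 days and 4 from mice given ethanol (EtOH), the vehicle. MC903 is calcipotriol, a vitamin D analog that brings on inflamed, itching skin in mice and is used as a model of atopic dermatitis. The source label names the whole ear, so skin, cartilage, fat and muscle can all contribute RNA. For a transcript in bulk tissue, fewer cells of a type and less RNA per cell cannot be told apart. The design text gives 4 mice in each group but no label ties a library to 1 mouse, so p-values measure the spread between these libraries, and the duration of vehicle treatment is not stated.

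Library totals ran from 12310466 to 16837221 counts. Vehicle replicate 2 stood apart: the salivary gland genes Bpifa2, Amy1 and Smr3a held 28.0% of its counts, against 0.0183% to 0.0488% in the other 7 libraries. Levels below are counts scaled to the library total (CPM) and adjusted by TMM factors, which allow for such a share. Cell type markers also differed between the groups. Summed keratinocyte marker levels were 16628 to 18161 CPM in MC903 libraries and 5297 to 6586 CPM in vehicle libraries, with 4 of 6 markers higher and none at 0. Those markers, Krt5, Krt14, Krt1, Krt10, Krt6a and Krt16, had log2 fold changes of -0.27 to 5.95. Macrophage and monocyte markers summed to 1393 to 2397 CPM in MC903 libraries and 678 to 831 CPM in vehicle libraries, with 6 of 6 higher. The neutrophil list was Cxcr2, S100a8, S100a9 and Ly6g. It summed to 388 to 1391 CPM in MC903 libraries and 31.0 to 110 CPM in vehicle libraries, with all 3 tested higher. Skeletal muscle markers summed to 1891 to 6486 CPM in MC903 libraries and 3441 to 10532 CPM in vehicle libraries, with 4 of 12 lower and none at 0. Adipocyte markers summed to 546 to 1224 CPM in MC903 libraries and 943 to 2535 CPM in vehicle libraries, with 5 of 8 lower. Cartilage markers summed to 89.8 to 114.5 CPM in MC903 libraries and 220.4 to 293 CPM in vehicle libraries, with 4 of 5 tested lower and Matn1 at or near 0 in both groups. Sebaceous gland markers summed to 2310.4 to 4049 CPM in MC903 libraries and 2588 to 4625 CPM in vehicle libraries, with 3 of 6 lower. For brown fat the sums were 516 to 1055 CPM in MC903 libraries and 687 to 1509.9 CPM in vehicle libraries, with 1 of 2 tested lower and Ucp1 near 0. T cell markers summed to 67.9 to 94.8 CPM in MC903 libraries and 55.6 to 74.9 CPM in vehicle libraries, with 2 of 5 higher. Of all genes tested, 21.3% were higher and 20.2% lower. In these sums, more cells of a type and more marker RNA per cell, or from other cells, cannot be told apart. The part of these cell types in the changes of the subunit genes was not tested.

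Transcripts of nuclear-encoded genes of the naming rule were higher in MC903-treated skin in many genes. They were lower in 1, Atp5s, known as coupling factor B and taken in by its symbol. Of the 85 nuclear genes, 83 passed the filter on low counts, 40 were called higher and 1 lower by edgeR's quasi-likelihood test at an adjusted p under 0.05. Among all 16105 genes tested, 41.5% were called, 21.3% higher and 20.2% lower. The median log2 fold change of the 83 subunit genes was 0.37, within a range of -0.86 to 1.86, beside -0.03 over all genes tested. In 31 of the 83 all 4 MC903 libraries lay above all 4 vehicle libraries and in 1 all lay below, which was the case for 19.8% and 18.9% of all genes tested. The count of 40 depended on the libraries and on the scaling. It was 24 without vehicle replicate 3, 25 without vehicle replicate 4, 35 without vehicle replicate 2, and 16 where library sizes were used without TMM factors. In these fits 5684, 6049, 5864 and 5389 of all genes were called either way, against 6682 as reported. Of those, 52%, 50.9%, 51.9% and 44% were higher, against 51.2% as reported. With each library left out in turn, 23 genes were called higher in every fit, for which no share of all genes is given here. Cox7b2 had 1 count and Cox8c 4 counts over the 8 libraries, and neither was tested.

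Summed over the 85 nuclear genes, MC903 libraries held 20784, 18243, 17980 and 16302 CPM, against 14576, 15516, 13534 and 12763 CPM in vehicle libraries. The lowest MC903 library lay above the highest vehicle library, which depended on the TMM factors. As a share of library counts the groups overlapped, since MC903 replicate 4 held 1.601% and vehicle replicate 1 held 1.636%. The 13 mitochondrial genes summed to 10992, 17246, 18588 and 17487 CPM in MC903 libraries, against 27470, 19606, 16702 and 16808 CPM in vehicle libraries. Here the groups overlapped, with MC903 replicate 1 the lowest of all 8 and vehicle replicate 1 the highest. mt-Co2, mt-Co3, mt-Nd4l, mt-Atp6 and mt-Atp8 had at most 3 counts each over all libraries. The mitochondrial sum, and the level of any ratio taken from it, thus rests on the other genes, mainly mt-Nd1 and mt-Cytb. How reads shared with nuclear copies were counted is not known, as given below. The ratio of mitochondrial to nuclear subunit transcripts within a library needs no scaling between libraries. It was 0.529, 0.945, 1.03 and 1.07 in MC903 libraries and 1.88, 1.26, 1.23 and 1.32 in vehicle libraries, so the groups did not overlap. No test was made on these sums.

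**Figure D1:**
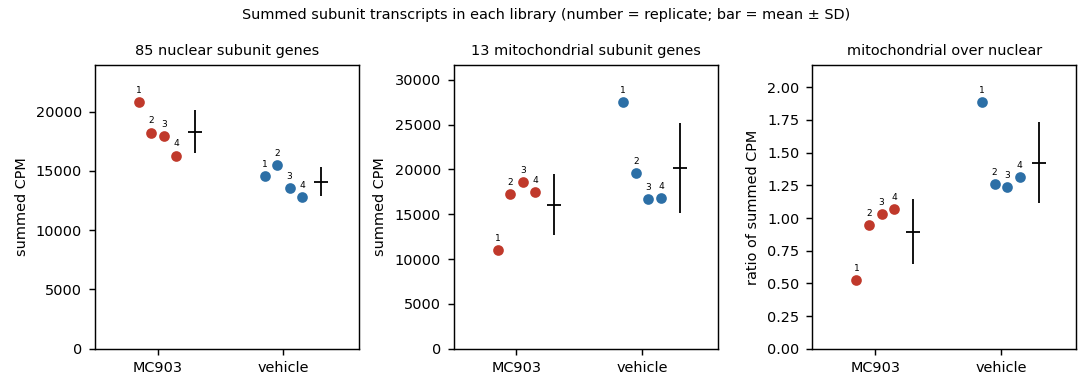
Summed transcripts of the 85 nuclear subunit genes and the 13 mitochondrial subunit genes (TMM-scaled CPM) and their ratio, with 1 point per library and bars for the mean ± SD (n = 4 each). Nuclear sums were 16302 to 20784 CPM in MC903 libraries and 12763 to 15516 CPM in vehicle libraries, while the ratio was 0.529 to 1.07 in MC903 libraries and 1.23 to 1.88 in vehicle libraries. The mitochondrial sum holds next to no counts of mt-Co2, mt-Co3, mt-Nd4l, mt-Atp6 and mt-Atp8.

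By complex, complex I had 16 of 38 nuclear genes higher (median log2 fold change 0.32), complex II 0 of 4 (median -0.03), complex III 6 of 8 (median 0.58), complex IV 8 of 16 tested (median 0.52) and complex V 10 of 17 (median 0.50), with 1 gene of complex V lower. With a library left out these counts ran from 7 to 17 in complex I (7 without vehicle replicate 3, 8 without vehicle replicate 4), 3 to 6 in complex III (3 without vehicle replicate 3, vehicle replicate 4 or MC903 replicate 3), 7 to 8 in complex IV and 7 to 11 in complex V. With library sizes alone they were 5, 2, 5 and 4 in complexes I, III, IV and V. Complexes were assigned by gene symbol, so Ndufa4, later found in complex IV, and its paralog Ndufa4l2 are counted under complex I. Atp5s, known as coupling factor B, is counted under complex V and, not being core, among supernumerary subunits. Differences between complexes were not tested. Core subunits were called higher in 5 of 21 genes (23.8%), near the 21.3% of all genes tested, and supernumerary subunits in 35 of 62 tested (56.5%). None of the 7 nuclear core subunits of complex I, which carry the flavin and the iron-sulfur clusters, passed the threshold. Their median log2 fold change was 0.07, and 1 of the 7 had an unadjusted p under 0.05. The difference between core and supernumerary subunits was not tested, and the 2 classes were not matched for gene length. Of protein-coding genes tested, 49.4% were called higher under 1000 bases and 14.6% above 4000 bases. The part of length in the shares of the 2 classes was not tested.

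**Figure D2:**
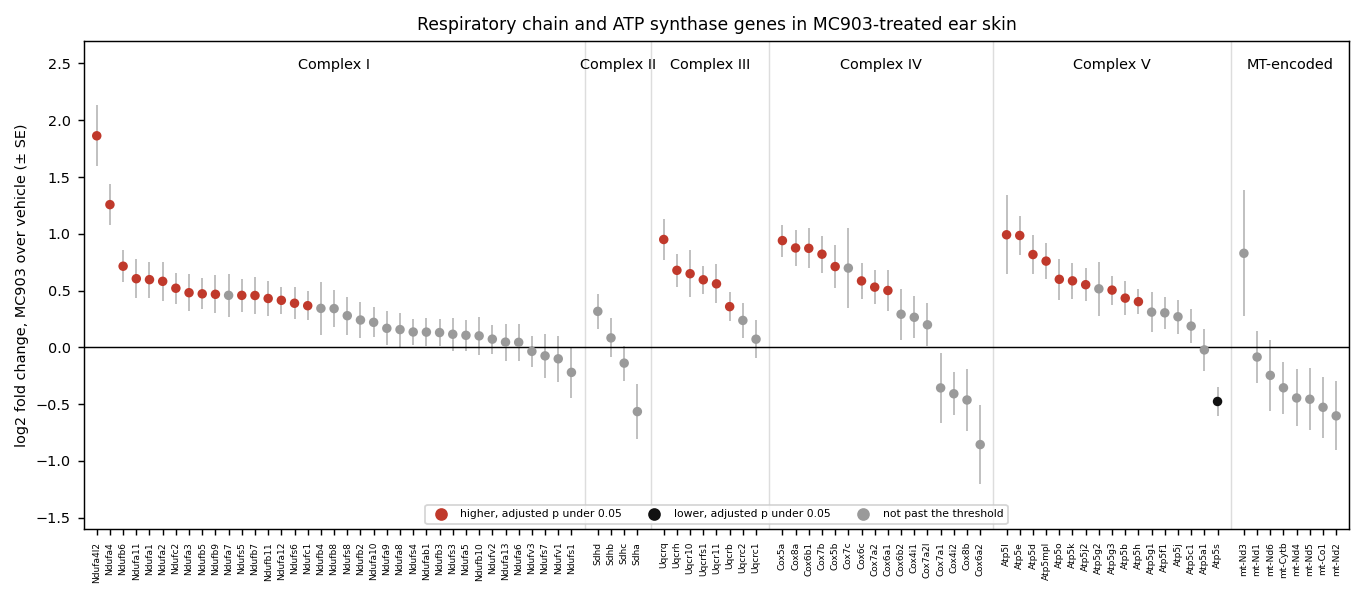
Log2 fold change (MC903 over vehicle) with its SE for subunit genes that passed the filter, ordered within complexes I to V and then the mitochondrial (MT) genes. Points above 0 are higher in MC903 libraries, and 40 nuclear genes and 0 mitochondrial genes were called higher.

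The largest rise was in Ndufa4l2 (chr10:127514939-127517152, mm10, plus strand), a paralog of Ndufa4 known in human cells as a hypoxia-inducible gene that lowers complex I activity. Ndufa4l2 had 239, 206, 195 and 91.5 CPM in MC903 libraries, against 53.8, 43.3, 40.1 and 64.0 CPM in vehicle libraries. All MC903 libraries lay above all vehicle libraries, though MC903 replicate 4 was close to vehicle replicate 4. The log2 fold change was 1.86 ± 0.27 (SE, adjusted p = 0.00026), a fold of 3.64.

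Ndufa4 itself (chr6:11900373-11907446, minus strand) was first assigned to complex I and later found in complex IV. Its levels were 1131, 1212, 948 and 835 CPM in MC903 libraries and 482, 464, 386 and 394 CPM in vehicle libraries. The lowest MC903 library was well above the highest vehicle library, and the log2 fold change was 1.26 ± 0.18 (adjusted p = 0.000242). Per kilobase of gene, Ndufa4 had the highest level of the nuclear subunit genes, with means of 2096 RPKM in MC903 libraries and 877 RPKM in vehicle libraries.

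AA467197 is the mouse homolog of human C15ORF48, a further paralog of Ndufa4 that is known to replace NDUFA4 in complex IV in inflamed human cells. It falls outside the naming rule and was taken up as a paralog. AA467197 had 5.67, 9.91, 5.37 and 6.17 CPM in MC903 libraries, against 0.707, 1.23, 0.571 and 2.12 CPM in vehicle libraries. These low levels did not overlap, and the log2 fold change was 2.55 ± 0.37 (adjusted p = 0.000305). The ratio of AA467197 to Ndufa4 was 1.41 log2 units higher in MC903 libraries, and that of Ndufa4l2 to Ndufa4 0.55 log2 units higher. Neither ratio passed the threshold in a two-sided exact permutation test over the 8 libraries (p = 0.0571 and 0.0857, adjusted over 8 ratios 0.152 and 0.171), where the smallest possible p is 0.0286. After adjustment, a ratio could not pass unless several others were also at that smallest p. These results are therefore no sign of unchanged ratios.

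**Figure D3:**
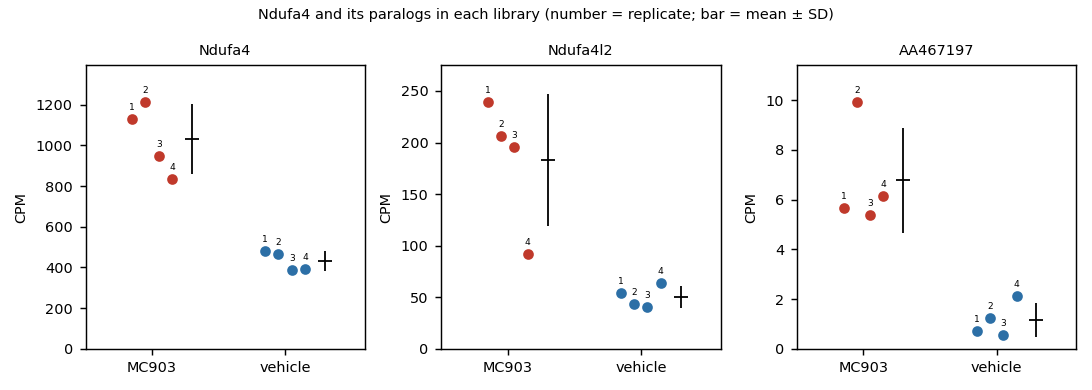
Levels of Ndufa4, Ndufa4l2 and AA467197 in each library (TMM-scaled CPM), with bars for the mean ± SD (n = 4 each). In all 3 genes the MC903 libraries lie above the vehicle libraries, with means of 1031 CPM in MC903 libraries and 431 CPM in vehicle libraries for Ndufa4.

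Among the other genes counted under complex I, Ndufb6 (chr4:40270591-40279421, minus strand), a supernumerary subunit of the membrane arm, had the smallest p. It had 87.3, 93.2, 80.9 and 63.8 CPM in MC903 libraries, against 49.7, 54.7, 43.3 and 50.5 CPM in vehicle libraries, without overlap. Its log2 fold change was 0.71 ± 0.14 (adjusted p = 0.00188), and 34.1% of the 50-base windows of its coding transcript also lie in other annotated genes, so its reads could be split between them. Over 25% of windows were shared in 14 nuclear members, called and not called. Among those called higher were Atp5o (50.3%), Atp5h (47.9%), Uqcrb (43.4%), Cox5a (32%) and Cox5b (30.6%). The remaining called complex I genes, all supernumerary, had log2 fold changes of 0.37 (Ndufc1) to 0.60 (Ndufa11).

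None of the 4 complex II genes passed the threshold. Sdha, the flavoprotein subunit that oxidises succinate (chr13:74322254-74350280, minus strand), had 223, 174, 178 and 306 CPM in MC903 libraries, against 269, 341, 454 and 239 CPM in vehicle libraries. The groups overlapped, and the log2 fold change was -0.57 ± 0.24 (adjusted p = 0.0787). The call changed with the libraries: Sdha passed the threshold as lower without vehicle replicate 4 (-0.69), without MC903 replicate 4 (-0.76) and with upper quartile factors (-0.64). The 2 are the libraries with the lowest and the highest muscle marker sums of the vehicle and MC903 groups, at 3441 and 6486 CPM, and the part of muscle content in this gene was not tested. Sdhb, Sdhc and Sdhd, the iron-sulfur subunit and the membrane anchors, had log2 fold changes of 0.08, -0.14 and 0.32.

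In complex III, Uqcrq, a small subunit next to cytochrome b, had 523, 419, 438 and 320 CPM in MC903 libraries, against 229, 256, 185 and 211 CPM in vehicle libraries. Uqcrh, the hinge protein that helps cytochrome c dock, had 315, 302, 320 and 257 CPM in MC903 libraries, against 182, 216, 158 and 190 CPM in vehicle libraries. Uqcrfs1, the Rieske iron-sulfur protein of the core, had 105, 130.1, 125 and 138 CPM in MC903 libraries, against 88.7, 79.4, 86.7 and 74.9 CPM in vehicle libraries. None of these 3 genes overlapped between groups. Their log2 fold changes were 0.95 ± 0.18 (Uqcrq, adjusted p = 0.00161), 0.68 ± 0.15 (Uqcrh, adjusted p = 0.00346) and 0.60 ± 0.12 (Uqcrfs1, adjusted p = 0.00285). Uqcrfs1 fell short of the threshold with library sizes alone (0.51). The large matrix proteins Uqcrc1 and Uqcrc2 did not pass it, at 0.07 and 0.24.

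All nuclear subunits of complex IV are supernumerary, since its catalytic core is made from mitochondrial DNA. Cox5a, a matrix-side subunit that binds thyroid hormone metabolites, had 153, 147, 140.5 and 112 CPM in MC903 libraries, against 85.01, 72.4, 68.6 and 62.3 CPM in vehicle libraries. Cox8a, the ubiquitous form of the small membrane subunit VIII, had 188, 199.7, 194 and 133 CPM in MC903 libraries, against 107, 96.8, 78.6 and 107 CPM in vehicle libraries. Cox7b, another small membrane subunit, had 263, 260.1, 224 and 172 CPM in MC903 libraries, against 141, 145, 109 and 126 CPM in vehicle libraries. In each of the 3 genes all MC903 libraries were above all vehicle libraries, with MC903 replicate 4 the lowest of its group. The log2 fold changes were 0.94 ± 0.14 (Cox5a, adjusted p = 0.000353), 0.88 ± 0.16 (Cox8a, adjusted p = 0.00133) and 0.82 ± 0.16 (Cox7b, adjusted p = 0.00223).

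Some complex IV subunits have a second form made mainly in heart and skeletal muscle. The muscle forms had values on the other side of 0 from the ubiquitous forms. Cox6a2 (chr7:128205436-128206366, minus strand) had 134, 66.3, 116 and 120.2 CPM in MC903 libraries, against 316, 196, 201 and 78.3 CPM in vehicle libraries. Vehicle replicate 4 lay among the MC903 libraries, and the log2 fold change of -0.86 ± 0.35 missed the threshold (adjusted p = 0.0683). It passed as lower on all 8 libraries with DESeq2, no filter, library sizes alone and upper quartile factors (-0.94 to -0.84), and without vehicle replicate 4 (-1.12). Cox8b had 53.2, 35.5, 62.9 and 65.0 CPM in MC903 libraries, against 103, 87.4, 70.04 and 38.5 CPM in vehicle libraries, and Cox7a1 had 28.7, 16.7, 30.6 and 39.0 CPM in MC903 libraries, against 54.2, 40.03, 35.2 and 17.9 CPM in vehicle libraries. In both genes vehicle replicate 4 was the lowest of its group and the groups overlapped. Neither passed, at -0.46 ± 0.27 (Cox8b, adjusted p = 0.196) and -0.36 ± 0.31 (Cox7a1, adjusted p = 0.378), although Cox8b did without vehicle replicate 4 (-0.68).

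Muscle markers and these 3 genes shared the lowest library of each group, MC903 replicate 2 and vehicle replicate 4. The highest was not always shared. In vehicle libraries the 3 genes were highest in replicate 1 and the markers in replicate 2. In MC903 libraries Cox6a2 was highest in replicate 1, but Cox7a1, Cox8b and the markers in replicate 4. The 12 muscle markers summed to 4447, 1891, 3562 and 6486 CPM in MC903 libraries and to 10481, 10532, 9144 and 3441 CPM in vehicle libraries, so vehicle replicate 4 was also the lowest vehicle library here. The part of muscle content in the values of the muscle forms was not tested. Cox4i2, the form of subunit IV known from lung and hypoxic cells, had 20.8, 12.9, 13.5 and 15.8 CPM in MC903 libraries, against 26.6, 16.8, 18.9 and 21.4 CPM in vehicle libraries (-0.41 ± 0.19, adjusted p = 0.103), and passed as lower without MC903 replicate 1 (-0.57).

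**Figure D4:**
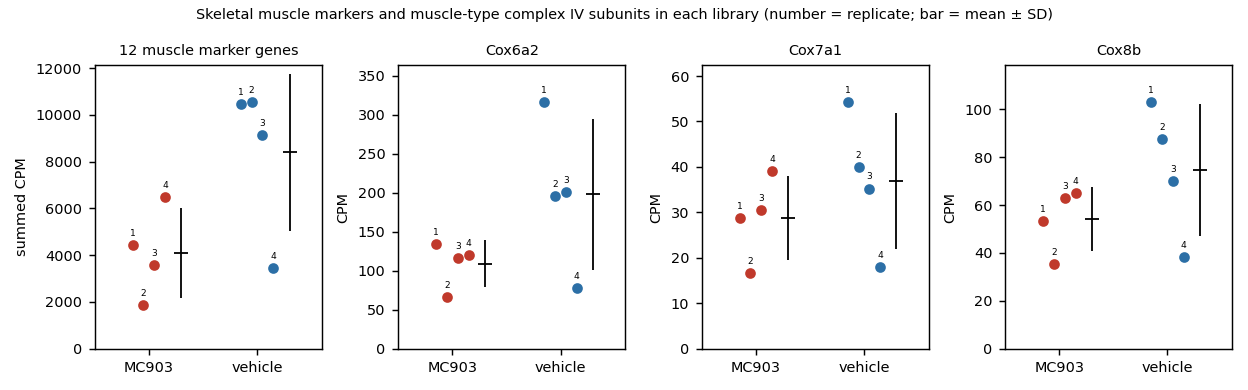
Summed CPM of 12 skeletal muscle marker genes and CPM of the muscle-type complex IV genes Cox6a2, Cox7a1 and Cox8b in each library, with the replicate number at each point and bars for the mean ± SD (n = 4 each). Vehicle replicate 4 is the lowest vehicle library in all 4 panels, at 78.3 CPM for Cox6a2.

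The ubiquitous partners had higher values. Cox6a1 had 450.5, 393, 384 and 277 CPM in MC903 libraries, against 283, 289, 205 and 286 CPM in vehicle libraries (0.50 ± 0.18, adjusted p = 0.0474), and lost its call in 7 of the 8 fits that left out a library. Cox7a2 had 334, 354, 332 and 275 CPM in MC903 libraries, against 227, 244, 187 and 239 CPM in vehicle libraries, without overlap (0.53 ± 0.15, adjusted p = 0.0138), and lost its call with library sizes alone (0.46). Cox4i1 had 1074, 836, 857 and 647 CPM in MC903 libraries, against 706, 783, 635 and 717 CPM in vehicle libraries, with overlap (0.27 ± 0.18, adjusted p = 0.266). Within libraries, the log2 ratios of the tissue-limited to the ubiquitous form were lower in MC903 libraries by 1.24 for Cox6a2 over Cox6a1, 1.28 for Cox8b over Cox8a, 0.85 for Cox7a1 over Cox7a2 and 0.66 for Cox4i2 over Cox4i1. None passed the threshold in the two-sided exact permutation test (p = 0.114, 0.0571, 0.143 and 0.0571, adjusted p from 0.152 to 0.190), and the groups overlapped in all 4. As above, the adjusted test could not be passed by 1 ratio alone.

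In complex V, Atp5e and Atp5d encode the epsilon and delta subunits of the rotating central stalk, and Atp5mpl a small subunit of the membrane sector. Atp5e had 375, 371, 330 and 265 CPM in MC903 libraries, against 174, 206, 151 and 146 CPM in vehicle libraries. Atp5d had 271, 183, 201 and 155 CPM in MC903 libraries, against 134, 107, 114 and 105 CPM in vehicle libraries. Atp5mpl had 163, 180.05, 159 and 128 CPM in MC903 libraries, against 107, 105, 73.2 and 87.5 CPM in vehicle libraries. All 3 were free of overlap, with log2 fold changes of 0.99 ± 0.17 (Atp5e, adjusted p = 0.000832), 0.82 ± 0.17 (Atp5d, adjusted p = 0.00332) and 0.76 ± 0.16 (Atp5mpl, adjusted p = 0.00266). Among other core subunits, Atp5b (beta) was called higher at 0.43. Atp5a1 (alpha), at -0.02, and Atp5c1 (gamma), at 0.19, did not pass the threshold. In Atp5c1 the lowest MC903 library lay just above the highest vehicle library (631.97 and 631.94 CPM). Differences between these genes were not tested.

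Atp5l, subunit g of the membrane sector, was also called higher, but on few reads. It had 4.45, 16.4, 6.49 and 6.41 CPM in MC903 libraries, against 4.12, 3.77, 4.46 and 4.50 CPM in vehicle libraries, and MC903 replicate 1 lay within the vehicle range. Its log2 fold change of 0.99 ± 0.35 (adjusted p = 0.0397) was 0.46 without MC903 replicate 2, and the call was lost without that library and without each vehicle library. Pseudogenes and other genes share 84.8% of its 50-base windows.

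The c ring of the ATP synthase is built from 3 genes that encode the same mature protein. Atp5g3 had 284, 289, 259.8 and 255 CPM in MC903 libraries, against 214, 190.03, 180.3 and 183 CPM in vehicle libraries, without overlap (0.50 ± 0.13, adjusted p = 0.00842), and lost its call with library sizes alone (0.42). Atp5g1 had 20.2, 26.1, 19.3 and 24.7 CPM in MC903 libraries, against 23.3, 17.4, 18.3 and 13.7 CPM in vehicle libraries (0.31 ± 0.17, adjusted p = 0.172). Atp5g2 had 2.02, 3.83, 3.11 and 2.92 CPM in MC903 libraries, against 1.71, 2.15, 2.11 and 2.31 CPM in vehicle libraries (0.52 ± 0.24, adjusted p = 0.1001), and was called higher without MC903 replicate 1 (0.67). Their ratios to Atp5g3 moved by -0.18 and -0.02 log2 units (exact permutation p = 0.257 and 0.971). Per kilobase, Atp5g3 had the highest level of the 3 in both groups, at 125 RPKM in MC903 libraries and 87.9 RPKM in vehicle libraries.

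Atp5s (chr12:69724962-69744658, plus strand), known as coupling factor B and taken in by its Atp5 symbol, was the only gene of the naming rule called lower. It had 11.1, 12.1, 12.1 and 14.7 CPM in MC903 libraries, against 18.6, 16.1, 17.5 and 17.2 CPM in vehicle libraries. The groups did not overlap, and the log2 fold change was -0.48 ± 0.13 (adjusted p = 0.0125).

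Promoters were compared for the nuclear genes because many moved in 1 direction. RefSeq (GRCm38.p6) gave the 250 bases before the start for 67 of the 85 genes, with the start nearest the deposited 5′ end and within 1000 bases of it. For other genes the first listed start was taken, with no limit of distance. Shares in subunit promoters and in all promoters below therefore rest on unlike choices of start. The motif of nuclear respiratory factor 1 (NRF1), a known activator of respiratory genes, was written as GCGCA, any base, GCGC. It was searched on both strands and lay in 11 of the 67 (16.4%), beside 3.86% of 27025 promoters of all genes. It lay in 18.8% of 32 promoters of genes called higher and in 15.2% of 33 not called, a difference of 1 promoter (6 and 5). The ETS motif CCGGAAGT, which GABP binds, lay in 4.48% of the subunit promoters and 2.93% of all promoters, in 3 of the 32 called higher and 0 of the 33 not called. Promoters of 4 genes are shown from 5′ to 3′ on the gene's strand, ending at the base before the start: Cox6a1 and Atp5h, both called higher, Sdha, not called, and Ndufa4, called higher with no match to the motifs searched. Capitals mark matches, which are NRF1 motifs except the last match in Atp5h, an ETS motif.
Cox6a1 (chr5:115348959-115349208, minus strand): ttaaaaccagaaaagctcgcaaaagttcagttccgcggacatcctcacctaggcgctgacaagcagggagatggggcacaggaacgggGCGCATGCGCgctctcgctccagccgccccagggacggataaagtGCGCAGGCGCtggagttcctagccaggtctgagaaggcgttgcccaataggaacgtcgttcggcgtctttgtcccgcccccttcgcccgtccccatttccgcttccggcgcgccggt
Atp5h (chr11:115419920-115420169, minus strand): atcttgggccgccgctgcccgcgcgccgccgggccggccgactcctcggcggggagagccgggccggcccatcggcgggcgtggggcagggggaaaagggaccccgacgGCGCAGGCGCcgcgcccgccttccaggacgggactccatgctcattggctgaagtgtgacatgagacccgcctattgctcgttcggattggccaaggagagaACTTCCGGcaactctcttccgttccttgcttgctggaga
Sdha (chr13:74350241-74350490, minus strand): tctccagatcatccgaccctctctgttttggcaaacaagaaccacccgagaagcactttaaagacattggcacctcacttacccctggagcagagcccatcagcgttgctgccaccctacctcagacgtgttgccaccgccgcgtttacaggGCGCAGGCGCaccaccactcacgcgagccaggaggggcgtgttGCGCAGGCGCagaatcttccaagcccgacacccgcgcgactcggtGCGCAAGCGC
Ndufa4 (chr6:11907451-11907700, minus strand): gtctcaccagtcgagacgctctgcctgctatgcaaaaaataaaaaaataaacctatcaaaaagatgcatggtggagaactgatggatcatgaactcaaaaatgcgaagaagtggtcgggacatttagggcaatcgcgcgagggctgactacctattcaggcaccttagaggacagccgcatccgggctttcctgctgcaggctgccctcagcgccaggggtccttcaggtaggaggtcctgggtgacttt

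Called genes were mostly short. Of nuclear subunit genes with a deposited length under 1000 bases, 23 of 31 tested were called higher, as were 293 of 593 protein-coding genes of that length. Between 1000 and 2000 bases the counts were 10 of 28 subunit genes and 735 of 2181 protein-coding genes. From 2000 to 4000 bases they were 5 of 17 and 1212 of 5043, and above 4000 bases 2 of 7 and 960 of 6560. Across genes, which are not independent replicates, Spearman's rho between length and log2 fold change was -0.32 over the 83 nuclear subunit genes and -0.22 over 14377 protein-coding genes. The part of length in the changes was not tested.

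**Figure D5:**
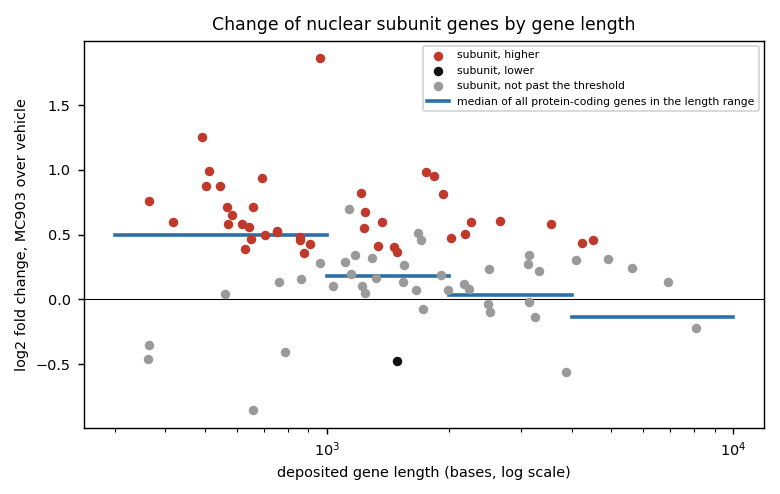
Log2 fold change (MC903 over vehicle) of nuclear subunit genes tested against their deposited length in bases (log axis), with the median of all protein-coding genes in each length range as a line (the last line covers all genes above 4000 bases). Subunit genes called higher (23 of 31 under 1000 bases) lie mostly at the left, where the line is also highest.

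No mitochondrial-encoded subunit was called in either direction, beside 21.3% higher and 20.2% lower of all genes tested. Of the 13 genes, 8 passed the filter, and 0 had an unadjusted p under 0.05 in edgeR's test, as 8079 of all 16105 genes tested had. DESeq2 and limma-voom also called 0. The 7 genes with over 1000 counts each had log2 fold changes of -0.60 to -0.08, with a median of -0.40 over the 8. In all 7 the MC903 and vehicle libraries overlapped. For each library the median log2 CPM over the genes tested was taken. The SD of this median within groups was 0.425 for the 8 mitochondrial genes and 0.172 for the 83 nuclear genes. A median over fewer genes evens out less, so these values do not compare the spread of single genes.

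The ND genes encode the proton-pumping membrane arm of complex I. mt-Nd1 had 3704, 5279, 5735 and 5232 CPM in MC903 libraries, against 7239, 4961, 4424 and 4535 CPM in vehicle libraries (-0.08 ± 0.23, adjusted p = 0.788). mt-Nd2 had 563, 1129, 1271 and 1442 CPM in MC903 libraries, against 2488, 1520, 1368 and 1315 CPM in vehicle libraries (-0.60 ± 0.30, adjusted p = 0.131). mt-Nd4 had 1011, 1563, 1716 and 1675 CPM in MC903 libraries, against 2953, 1937, 1565 and 1669 CPM in vehicle libraries (-0.45 ± 0.25, adjusted p = 0.175). In these genes MC903 replicate 1 was the lowest of the 8 libraries and vehicle replicate 1 the highest. mt-Nd5 had 654, 1451, 1518 and 1467 CPM in MC903 libraries, against 2282, 1731, 1573 and 1398 CPM in vehicle libraries (-0.46 ± 0.27, adjusted p = 0.201). mt-Nd6, the only subunit gene on the other strand, had 263, 743, 591 and 573 CPM in MC903 libraries, against 969, 515, 495 and 593 CPM in vehicle libraries (-0.25 ± 0.31, adjusted p = 0.549). The library protocol marks no strand, so antisense reads at mt-Nd6 cannot be told apart from its own. Left out in turn, vehicle replicate 1 and MC903 replicate 1 turned mt-Nd1 to 0.10 and 0.04, and without vehicle replicate 1 mt-Nd6 was at 0.018.

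Cytochrome b, the membrane core of complex III, is encoded by mt-Cytb, which had 3797, 5411, 6043 and 6052 CPM in MC903 libraries, against 8763, 7182, 5942 and 5371 CPM in vehicle libraries (-0.36 ± 0.23, adjusted p = 0.237). mt-Co1, the catalytic subunit of complex IV, had 998, 1658, 1710.0 and 1036 CPM in MC903 libraries, against 2773, 1757, 1332 and 1924 CPM in vehicle libraries (-0.53 ± 0.27, adjusted p = 0.137). Both showed the same order at the extremes, with MC903 replicate 1 lowest and vehicle replicate 1 highest.

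The other mitochondrial genes had few or no counts. mt-Nd3 had 13, 138, 62 and 123 counts in MC903 libraries, against 72, 29, 74 and 63 counts in vehicle libraries (0.83 ± 0.55, adjusted p = 0.249), and passed the threshold as higher without MC903 replicate 1 (1.21). mt-Co2, which carries the copper centre of complex IV, had 0, 2, 1 and 0 counts in MC903 libraries and 0 in each vehicle library, whereas mt-Co1 had 12768 to 25807 counts in MC903 libraries and 22870 to 47069 counts in vehicle libraries. mt-Co3, mt-Nd4l and mt-Atp6 had 2 counts each over the 8 libraries and mt-Atp8 had 0, which allows at most 0.178 to 0.244 CPM per library. Of the 50-base windows of mt-Co2, mt-Co3, mt-Atp6, mt-Nd4l and mt-Nd3, 98.0% to 100% also lie in nuclear copies annotated on chromosome 1, as do 62.2% of those of mt-Nd4 and 51.1% of mt-Co1. A read of 50 bases from such a window cannot be placed in 1 genome, and how such reads were handled is not given in the sources used here, so the counts of these genes may miss reads. For mt-Atp8 no window was shared with an annotated copy. The nuclear copy Gm28661 (chr1:24614885-24615565) matched mt-Co2 (chrM:7013-7696) over 681 aligned bases with 0 differences. The first 60 bases of both, from GENCODE M21 transcripts of GRCm38, are shown in lower case since none differs.
mt-Co2: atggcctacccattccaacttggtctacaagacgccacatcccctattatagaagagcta

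Genes that build, regulate and express the respiratory chain were compared through 7 lists. Among assembly factors, 11 of 44 tested were higher, beside 21.3% of all genes tested, and 2 lower (median log2 fold change 0.14). With library sizes alone 5 were higher, and 4 were lower without MC903 replicate 1. Pet100, a complex IV chaperone, had 58.8, 65.0, 51.1 and 35.8 CPM in MC903 libraries, against 25.3, 30.1, 24.7 and 26.5 CPM in vehicle libraries (0.98 ± 0.17, adjusted p = 0.00103). Ndufaf8, of complex I assembly, had 25.4, 24.4, 21.5 and 20.6 CPM in MC903 libraries, against 15.2, 14.0, 12.1 and 13.6 CPM in vehicle libraries (0.75 ± 0.13, adjusted p = 0.000935). The 2 that fell were Ttc19, of complex III assembly, with 16.3, 17.3, 20.3 and 19.7 CPM in MC903 libraries and 31.1, 24.4, 28.7 and 29.4 CPM in vehicle libraries (-0.62 ± 0.13, adjusted p = 0.00283), and Surf1, of complex IV assembly, with 56.2, 37.8, 44.3 and 37.7 CPM in MC903 libraries and 60.3, 70.7, 60.2 and 63.0 CPM in vehicle libraries (-0.53 ± 0.14, adjusted p = 0.0129). None of these 4 overlapped between groups.

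Mitochondrial ribosome proteins, which serve translation of the mitochondrial-encoded subunits, were higher in 38 of 75 tested and lower in 0. The shares of all genes tested were 21.3% and 20.2%. The median log2 fold change of the 75 was 0.36. The count higher was 11 with library sizes alone and 23 to 44 with a library left out (23 without vehicle replicate 3, 25 without vehicle replicate 4). Mrpl12 had 65.8, 62.3, 61.5 and 60.8 CPM in MC903 libraries, against 33.6, 37.6, 38.7 and 36.2 CPM in vehicle libraries (0.78 ± 0.10, adjusted p = 0.000157). Mrpl20 had 184, 186, 181 and 136 CPM in MC903 libraries, against 92.0, 104, 81.3 and 96.3 CPM in vehicle libraries (0.88 ± 0.14, adjusted p = 0.000529). Both genes encode proteins of the large subunit.

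Citrate cycle enzymes had 0 of 16 called in edgeR's test and 2 at an unadjusted p under 0.05, with a median log2 fold change of -0.12. For this list and the next, the shares of all genes tested were 21.3% higher and 20.2% lower. Leaving out a library gave 0 to 3 lower (3 without MC903 replicate 4, 2 without vehicle replicate 4). Of 13 coenzyme Q synthesis genes, 1 was higher and 1 lower: Coq10b had 15.9, 25.6, 25.4 and 24.4 CPM in MC903 libraries, against 17.3, 13.4, 17.9 and 16.3 CPM in vehicle libraries (0.49 ± 0.17, adjusted p = 0.0384), and Coq10a had 21.9, 14.5, 21.5 and 16.1 CPM in MC903 libraries, against 34.3, 25.1, 24.7 and 21.1 CPM in vehicle libraries (-0.51 ± 0.19, adjusted p = 0.0463). Both overlapped between groups and lost the call in most fits that left out a library.

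Of 11 electron, phosphate and adenine nucleotide carrier genes tested, 2 were higher and 0 lower, beside 21.3% and 20.2% of all genes tested. With library sizes alone 0 were higher. Slc25a3, the phosphate carrier, had 371, 339, 345 and 304 CPM in MC903 libraries, against 271, 235, 227 and 236 CPM in vehicle libraries (0.49 ± 0.14, adjusted p = 0.0138), and lost its call with library sizes alone (0.40). Slc25a5, the widely expressed ADP/ATP carrier, had 978, 774, 781 and 792 CPM in MC903 libraries, against 489, 699.7, 584 and 628 CPM in vehicle libraries (0.47 ± 0.17, adjusted p = 0.0463), and lost its call in 7 of the 8 fits without a library. Neither overlapped between groups. Slc25a4, the carrier typical of heart and muscle, had 1025, 524, 708 and 1071 CPM in MC903 libraries, against 1442, 1276, 1396 and 616 CPM in vehicle libraries (-0.51 ± 0.30, adjusted p = 0.196), with vehicle replicate 4 again the lowest of its group. Without that library it passed as lower (-0.72), the 1 carrier gene to do so. Cycs, cytochrome c, had 3.37, 8.91, 8.95 and 11.04 CPM in MC903 libraries, against 7.19, 5.61, 8.11 and 5.31 CPM in vehicle libraries (0.29 ± 0.30, adjusted p = 0.465), and passed as higher without MC903 replicate 1 (0.56).

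Of 14 regulators of mitochondrial biogenesis, 1 was higher and 2 lower, beside 21.3% and 20.2% of all genes tested. Leaving out a library gave 1 to 3 higher (3 without MC903 replicate 1) and 1 to 3 lower, and DESeq2 gave 2 higher. Esrra, the nuclear receptor ERR alpha, had 6.14, 5.92, 6.49 and 6.65 CPM in MC903 libraries, against 2.71, 4.23, 3.89 and 3.62 CPM in vehicle libraries, without overlap (0.81 ± 0.18, adjusted p = 0.00431). Ppara, a receptor that drives fatty acid oxidation, had 2.43, 3.67, 4.77 and 5.36 CPM in MC903 libraries, against 9.84, 13.7, 10.4 and 12.2 CPM in vehicle libraries, without overlap (-1.51 ± 0.23, adjusted p = 0.000424). Perm1, known as a regulator in muscle, had 30.1, 30.7, 38.3 and 35.4 CPM in MC903 libraries, against 61.1, 43.0, 45.5 and 37.6 CPM in vehicle libraries (-0.48 ± 0.16, adjusted p = 0.0324), and lost the call without 4 of the 8 libraries (MC903 replicates 1 and 2, vehicle replicates 1 and 3). The coactivator Ppargc1a had 5.40, 4.25, 8.95 and 16.6 CPM in MC903 libraries, against 22.5, 17.8, 18.5 and 10.49 CPM in vehicle libraries (-0.98 ± 0.37, adjusted p = 0.0545), and passed the threshold as lower with DESeq2, limma-voom, no filter, library sizes alone and upper quartile factors (-1.13 to -0.97), and without MC903 replicate 4 (-1.47) or vehicle replicate 4 (-1.16). The values of Tfam, Nrf1, Gabpa and Ppargc1b overlapped between groups, with log2 fold changes of 0.05, 0.07, 0.06 and -0.05, none past the threshold and each of a sign that turned with the scaling or a library left out.

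Of 22 genes for mitochondrial DNA and RNA handling, 3 were higher and 2 lower, beside 21.3% and 20.2% of all genes tested. Without MC903 replicate 1, 5 were higher. Slirp, a stabiliser of mitochondrial mRNA, had 83.4, 108, 85.5 and 59.2 CPM in MC903 libraries, against 52.4, 44.0, 39.8 and 48.0 CPM in vehicle libraries (0.87 ± 0.17, adjusted p = 0.00219). Tbrg4, of the same FASTK protein family as Fastkd1, had 29.6, 25.2, 22.3 and 24.7 CPM in MC903 libraries, against 16.02, 17.8, 16.6 and 14.4 CPM in vehicle libraries (0.66 ± 0.13, adjusted p = 0.00220). Fastkd1 had 11.2, 9.17, 12.7 and 12.3 CPM in MC903 libraries, against 18.8, 17.4, 19.0 and 20.0 CPM in vehicle libraries (-0.73 ± 0.14, adjusted p = 0.00150). Polg2, the accessory subunit of the mitochondrial DNA polymerase, had 11.9, 8.83, 9.87 and 7.79 CPM in MC903 libraries, against 14.96, 16.3, 16.7 and 16.9 CPM in vehicle libraries (-0.75 ± 0.15, adjusted p = 0.00222). The groups did not overlap in any of these 4 genes.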

How the data were processed

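The 8 tables, 1 per library, hold counts of reads per Ensembl gene with CPM and RPKM beside them, as the authors deposited them. The submitters' processing notes name STAR 2.0.4b, Subread and featureCounts 1.4.5, on mm10. Per the labels' protocols, ribosomal RNA was removed, random hexamers primed the cDNA and single reads of 50 bases were sequenced. Which annotation was used, and how multiply mapped reads were counted, is not given in the sources used here. A check showed the deposited CPM to be each count over the library total, and the deposited RPKM to be that per kilobase of deposited length. Neither was used further.

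Of the 41388 identifiers, 40254 had a symbol. Counts were filtered with filterByExpr by group and scaled with TMM factors. The test was the quasi-likelihood F-test of edgeR 4.0.16 (R 4.3.3) on all 8 libraries with group as its single term, Benjamini-Hochberg adjustment over every gene tested and a threshold of 0.05. The SE is the log2 fold change over the square root of F. CPM and RPKM in the results are TMM-scaled. Ratios used 0.5 added to each count. The deposited gene length joins all annotated exons, so levels per kilobase may be too low where it holds rare exons.

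Named genes were all mitochondrial members, the 3 called members with the smallest p per complex and direction, the 3 largest rises and falls, the paralog pairs, 2 genes per list and direction, and preset regulators and carriers. The values of 1 subunit gene are not reported here and are left out of the plots of single genes. Any other gene was picked with its values known. The members and lists were chosen with earlier results of these data known. The classes of core subunits, the length ranges, the motifs and the salivary genes were chosen after values had been seen. Shared windows were counted against GENCODE M21 transcripts, in the coding transcript nearest the deposited length. Alternatives were other scalings and filters, DESeq2 1.42.0, limma-voom (limma 3.58.1), a replicate block, and each library left out. A fit without TMM factors and without vehicle replicate 2 was chosen after seeing the data. The counting floor is 3 counts, 0.178 to 0.244 CPM. It covers counting error only, because reads amplified by PCR are not independent molecules.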

Additional observations from a re-analysis of the deposited data

Results flagged for a closer look

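In groups of 4 libraries, a library was marked where its gap to the nearest other, as a share of the group's range, passed Dixon's critical value. Of 124 groups checked 6 were marked, and chance alone marks about 1 in 20 groups. In MC903 libraries, replicate 1 was far below the others for mt-Nd5 (654 CPM, gap 0.923 of the range) and for Coq10b (15.9 CPM, gap 0.880), and far above them for Slc25a5 (978 CPM, gap 0.909). Replicate 4 was far below the others for Mrpl20 (136 CPM, gap 0.901). In vehicle libraries, replicate 3 was far below the others for Cox6a1 (205 CPM, gap 0.929), and replicate 4 for the log2 ratio of Cox8b to Cox8a (-0.89, gap 0.920).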

How the results depend on the processing

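The count of nuclear subunit genes called higher, 40 as reported, was 16 with library sizes alone and 24 to 40 with 1 library left out. It was again 16 with library sizes alone and vehicle replicate 2 left out, where 4 were lower and the median of all genes was -0.23, against -0.04 with TMM factors and that library left out. The count called lower, 1 as reported, was 2 without TMM factors, 3 with upper quartile factors, 2 with no filter, 2 with DESeq2 and 1 to 4 with a library left out. The cause was not tested. All genes called were 6682 as reported, 5389 without TMM factors, 6900 with upper quartile factors and 5514 to 7072 with a library left out. Of all genes called, 51.2% were higher as reported, 44.0% without TMM factors and 43.1% with upper quartile factors. The nuclear median stayed between 0.22 and 0.44 and the mitochondrial median between -0.59 and -0.21 in every setting run. Mitochondrial genes called higher were 0 to 1 with a library left out, the 1 being mt-Nd3 without MC903 replicate 1.

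The sign turned for several values near 0. Over the fits that left out 1 library, the log2 values ran from -0.16 to 0.10 for mt-Nd1, -0.43 to 0.018 for mt-Nd6, -0.11 to 0.0018 for Ppargc1b, -0.017 to 0.10 for Tfam, -0.038 to 0.24 for Gabpa and -0.16 to 0.18 for the ratio of Atp5g2 to Atp5g3. Scaling by library sizes alone gave -0.039 for Tfam, -0.030 for Gabpa and -0.0075 for Nrf1, or -0.18, -0.19 and -0.13 where vehicle replicate 2 was also left out. Upper quartile factors gave -0.027 for Tfam and -0.018 for Gabpa.

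Replicate numbers did not pair the libraries: deviations of same-numbered libraries correlated at 0.06, -0.14, -0.12 and -0.20. With the replicate number as a block, 30 nuclear genes were higher and 2 lower, and 5705 of all genes were called, against 6682 without it. Of the named genes, Cox4i2 passed as lower (-0.41, adjusted p = 0.048), and Atp5l, Cox6a1, Slc25a5, Perm1 and Coq10b lost their calls, which is no sign of weaker effects. Complex I genes called higher were 10 and mitochondrial ribosome genes 25. With 4 libraries a group, the exact permutation test of a ratio cannot go below p = 0.0286, or below 0.0571 with a library left out. Values under about 10 CPM rest on few reads.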

Other observations

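Genes closely tied to the ATP synthase that fall outside the naming rule were looked up after values had been seen. Usmg5, a small subunit that holds synthase dimers together, had 29.6, 64.1, 33.4 and 31.5 CPM in MC903 libraries, against 18.2, 22.8, 20.8 and 19.4 CPM in vehicle libraries (log2 fold change 0.96 ± 0.23, adjusted p = 0.00657 in edgeR's test). Atpif1, the inhibitor of ATP hydrolysis by the synthase, had 280.0, 271, 285 and 237 CPM in MC903 libraries, against 190, 200.4, 165 and 219.9 CPM in vehicle libraries (0.47 ± 0.14, adjusted p = 0.0187). The groups did not overlap in either gene. Cyc1, cytochrome c1 of complex III, had 127, 81.4, 85.7 and 70.8 CPM in MC903 libraries, against 99.8, 63.0, 70.2 and 47.5 CPM in vehicle libraries, with overlap (0.38 ± 0.23, adjusted p = 0.209).

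Mitochondrial ribosomal RNA, left after the removal of ribosomal RNA, summed to 7056, 16976, 13957 and 11181 CPM in MC903 libraries and to 11316, 7807, 6919 and 10249 CPM in vehicle libraries. The groups overlapped, and neither mt-Rnr1 (0.34 ± 0.28) nor mt-Rnr2 (0.45 ± 0.29) passed the threshold in edgeR's test.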
